A study of Drosophila melanogaster with 32 samples.

Results

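The microRNAs (miRNAs) of 4 genomic clusters that are known for expression in the fly testis, named after miR-959, miR-972, miR-982 and miR-991, were followed through small RNA libraries of whole flies. Mature miRNAs from the 20 hairpins of these clusters were taken wherever a row of the table of reads up to 25 nt held at least 50 reads over all libraries. This gave 18 miRNAs of the 209 in the table and of its 332 rows, which also list transposons. They comprise 9 of the miR-959 cluster (both arms of miR-959, miR-960, miR-961 and miR-964, and miR-962-5p), 5 of the miR-972 cluster (miR-973-5p, miR-974-5p, miR-975-5p, miR-976-3p and miR-977-5p), 3 of the miR-982 cluster (miR-982-5p, miR-983-5p and miR-984-5p) and miR-991-3p. The least read of them, miR-974-5p, had 94 reads, and miR-983-3p, with 43 reads, was left out. Mature forms of the other 6 hairpins were not analysed here. The limit of 50 was set on total reads, so it also admits miRNAs read almost only in 1 sex. All 18 reached it in males alone and 8 in females alone.

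Small RNAs were sequenced after immunoprecipitation of Ago1 or Ago2 from lysates of 40 whole mated flies with polyclonal guinea pig antisera. Wildtype flies were of the wDah strain, in which the white1118 mutation was bred into the outbred Dahomey stock. The dFOXO-null flies had the same background and the foxoΔ94 allele, obtained by excision of a P element. White is thus mutant in both genotypes, and the null rests on 1 allele. Each of the 16 groups, one for every combination of genotype, sex, age (5 d or 35 d) and Argonaute, had 2 libraries from separate experiments, and flies were given no treatment. Males and females shared vials until collection, and the young and old flies of a genotype and experiment came from the same parents. The labels name whole bodies and no dissected testis, so every value is an average over the fly, in which fewer cells of a type and less RNA per cell cannot be told apart.

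A miRNA is cut as a short duplex from a hairpin in its primary transcript, and 1 strand is then held by an Argonaute protein. In flies most miRNAs are loaded into Ago1, while Ago2 mainly holds small interfering RNAs. Bases 2 to 8, the seed, lead target pairing. Clustered hairpins can be processed from a shared transcript, and clusters of young, fast-changing miRNAs are known in the Drosophila testis. dFOXO is the fly's FOXO transcription factor, active when insulin signalling is low.

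On the dm6 assembly the 6 hairpins of the miR-959 cluster lie on the plus strand of chromosome 2L within 1262 bases (2L:5640940-5642201), on the opposite strand to the protein-coding gene DIP-theta that spans them. The 8 hairpins of the miR-972 cluster are spread over 10780 bases of the X plus strand (X:19551152-19561931). The miR-982 cluster holds 5 hairpins on the X minus strand (X:4365806-4368735), among them miR-983-1 and miR-983-2, whose 5p miRNAs are identical, so that their reads cannot be told apart. These last hairpins and miR-984 lie opposite the gene CG3626. All 18 miRNAs were matched to RefSeq's annotation of this assembly (GCF_000001215.4). The 17 whose sequence was read have 17 different seeds. The seed of miR-991-3p was not read.

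The sequences below are those on which the results turn, from RefSeq, 5′ to 3′, with the seed in capitals.
miR-976-3p: uUGGAUUAguuaucaucaaugc
miR-975-5p: uAAACACUuccuacauccuguau
miR-983-5p: aUAAUACGuuucgaacuaauga
miR-984-5p: uGAGGUAAauacgguuggaauuu
let-7-5p: uGAGGUAGuagguuguauagu
miR-959-5p: uUAGUACUcggguugauaaag
miR-962-5p: aUAAGGUAgagaaauugaugcuguc
miR-964-5p: uUAGAAUAggggagcuuaacuu
The first 2 differ most between the sexes, miR-983-5p is the most abundant of the 18, and the last 3 are those called between genotypes. let-7-5p, which is not one of the 18, is shown because miR-984-5p shares its first 7 bases.

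Libraries held 838988 to 5398798 mapped reads of up to 25 nt after Ago1 precipitation and 30604 to 561722 after Ago2 precipitation. Values below are reads per 1000000 mapped reads (RPM). A count of 0 therefore allows up to 3.58 RPM in the shallowest Ago1 library and up to 98 RPM in the shallowest Ago2 library. Such limits cover counting error only. Of 18 testis marker genes, 4 had transcripts in the table of reads mapped to the genome, with 5 to 26 summed reads in male and 0 to 4 in female Ago1 libraries. Of the 4, Mst84Db, Mst98Ca and Mst98Cb were at 0 in every female Ago1 library. The 7 of 14 ovary and eggshell genes listed there had 10 to 111 reads in female and 0 to 14 in male Ago1 libraries. Single genes went the other way: the eggshell gene Cp38 had 37 male and 25 female Ago1 reads (71 and 44 in Ago2), and roX1, an RNA of male dosage compensation, had 0 and 8 (5 and 37 in Ago2). The ovary miRNA miR-318-3p ran at a median of 10077 RPM in females and 22.0 RPM in males, and all 4 ovary miRNA rows tested (with miR-989-3p and both arms of miR-994) were lower in male Ago1 libraries. The testis list, the ovary list as a whole and the ovary miRNAs follow the sex labels, while Cp38 and roX1 do not. The deleted gene was not analysed here, so the genotype labels were not checked.

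The comparison of the sexes asks which of these miRNAs were found in males. In Ago1, 17 of 18 were higher in males (edgeR's quasi-likelihood test, adjusted p at most 0.000219), where 17.9% of the 308 rows tested were called higher and 43.8% lower. For 10 of the 18, with 0 to 42 female reads over both Argonautes, the limit of 50 reads was reached only through males, so that their direction was in part fixed by the choice and the count is a description. Of the 8 that reached it in females alone 7 were higher in males, and of the 6 whose female Ago1 reads alone meet the minimum for testing 5 were. The median difference was 3.44 on the log2 scale for the 18 and -0.38 for all rows. The 17 were higher in the male of all 8 pairs of libraries matched for genotype, age and experiment, and for 13 every male library stood above every female library, against 5.52% of the rows tested. Together the 18 made up a median of 1074 RPM in males (range 685 to 1519) and 141 RPM in females (range 55.0 to 315). The size of the difference was far from even. The miR-972 cluster was nearly confined to males. miR-983-5p, miR-984-5p and miR-991-3p were read in every female Ago1 library, while miR-982-5p had 9 reads over these. The miR-959 cluster ranged from no call to a difference of 4.05.

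**Figure D1:**
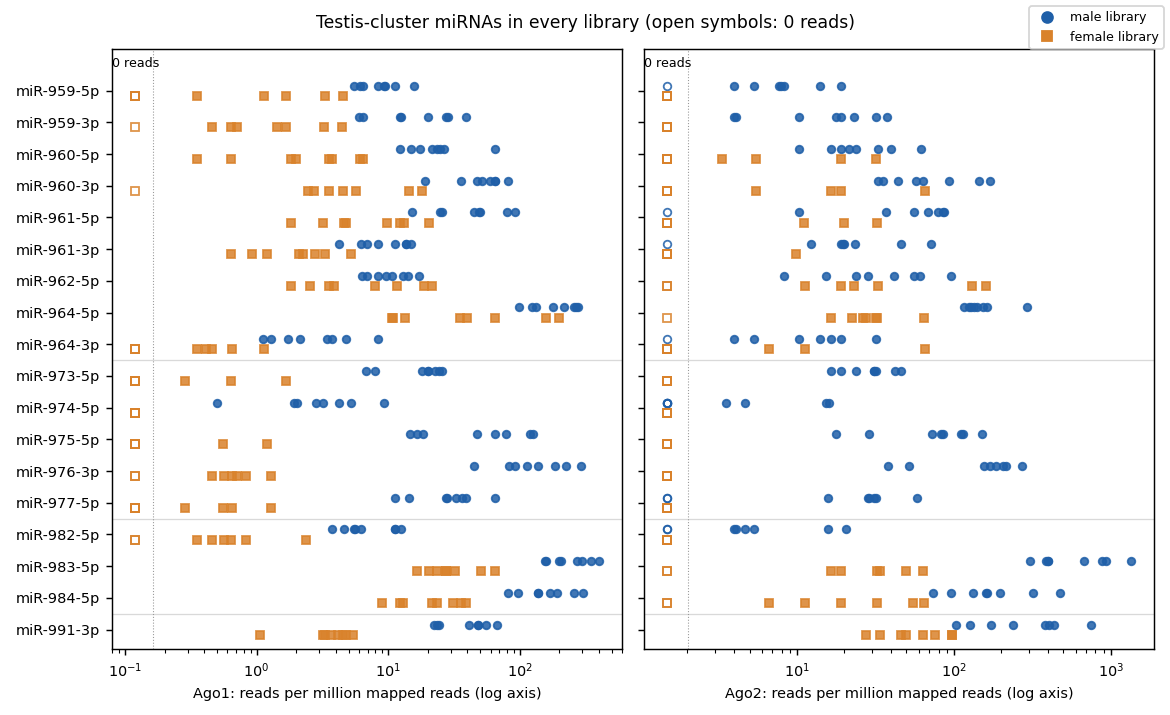
Level of each of the 18 miRNAs in every library, in RPM on a log axis, for Ago1 (left) and Ago2 (right); circles are male and squares female libraries (8 of each per panel), grey lines part the 4 clusters, and open symbols left of the dotted line stand for 0 reads. In Ago1 the miR-972 cluster (middle block) shows the widest gap, while the female squares of miR-962-5p and miR-964-5p reach into the male range.

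The 5 miRNAs of the miR-972 cluster were found in every male Ago1 library and were at 0 to 4 reads in each female one. miR-976-3p, the most abundant of them, ranged from 44.6 to 291 RPM in males with a median of 126, and from 0 to 1.28 RPM in females. It was higher in males by 7.72 (SE 0.55, log2, adjusted p = 2.80e-08). The groups did not overlap. miR-975-5p had 1272 reads in the 8 male libraries and 2 reads in the 8 female libraries, a ratio of 411 between the pooled RPM values with a 95% counting interval of 113 to 3396. miR-977-5p had 900 male and 5 female reads, and miR-973-5p had 457 and 6. miR-974-5p was the rarest, with 85 male reads and no female read. Its pooled level was at least 18.3-fold higher in males against a floor of 3 reads over the female libraries. All 5 were called (adjusted p at most 6.45e-05). However, all 5 reached the limit of 50 reads only through males, so that their direction was in part fixed by the choice. No standard error is given for the 4 with female groups at 0, since the fit could not estimate one. Expression in the testis is what this cluster is known for, and no target of its miRNAs is named here.

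The X chromosome also holds the miR-982 cluster, and 2 of its 3 miRNAs were read in every female Ago1 library. miR-983-5p ranged from 155 to 402 RPM in males (median 239) and from 16.6 to 65.0 RPM in females (median 27.5). It was higher in males by 2.94 (SE 0.32, adjusted p = 6.61e-07). The groups did not overlap, and each female library held at least 27 reads of it, where those of miR-976-3p held at most 2. miR-984-5p, which shares the start of let-7-5p, ranged from 81.1 to 301 RPM in males and from 8.96 to 39.2 RPM in females, a difference of 2.84 (SE 0.37, adjusted p = 5.30e-06). miR-982-5p was rarer, at 3.73 to 12.6 RPM in males and 0 to 2.38 RPM in females, and higher by 3.55 (SE 0.48, adjusted p = 5.09e-06). It reached the limit of 50 reads only through males. miR-991-3p, whose hairpin lies beside miR-992 on the minus strand of chromosome 2R (2R:20585200-20585405), ranged from 22.5 to 67.5 RPM in males and from 1.06 to 5.4 RPM in females, and was higher by 3.40 (SE 0.37, adjusted p = 6.20e-07). These 4 miRNAs thus differed by similar amounts, and all male libraries lay above all female libraries for each. Of the 8 rows tested from the miR-310 cluster, which lies next to miR-991, 7 were lower in males, with differences of -2.46 to -5.07, and miR-2498-5p was higher (3.49, SE 0.48, adjusted p = 7.26e-06).

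The miR-959 cluster was the most varied. The pairs of arms from miR-959 and miR-960 were higher in males by 3.21 to 4.05, with no overlap between the sexes, and those from miR-961 by 2.69 (5p) and 2.23 (3p), with overlap. miR-964-3p was higher by 3.35, also with overlap. miR-964-5p, the most abundant of the cluster, ranged from 99.3 to 276 RPM in males (median 197) and from 10.7 to 199 RPM in females (median 37.7). It was higher in males by 2.16 (SE 0.41, adjusted p = 0.000219), although its 2 highest female libraries reached the male range. miR-962-5p alone was not called. Its male libraries ranged from 6.37 to 17.2 RPM and its female libraries from 1.84 to 21.6 RPM, a difference of 0.64 (SE 0.34, adjusted p = 0.108), and the male was higher in 6 of 8 pairs. With scaling by TMM, by median-of-ratios factors and with DESeq2, miR-962-5p was called as well (1.18, 1.14 and 1.16, adjusted p = 0.00723, 0.00597 and 0.00192). TMM moved the median of all rows from -0.38 to 0.13, and 111 of its 224 calls were then higher in males, against 55 of 190 with total scaling.

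**Figure D2:**
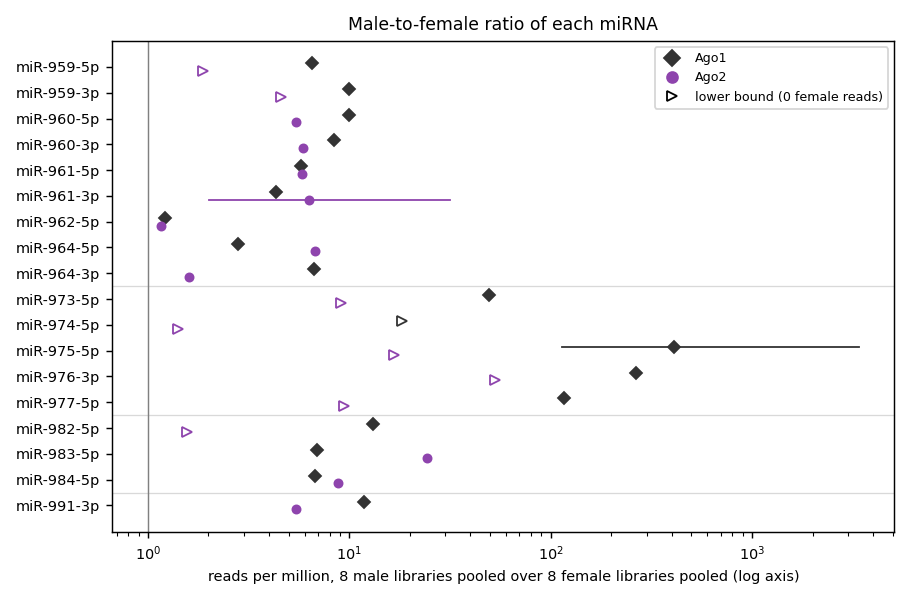
Ratio of pooled RPM in the 8 male libraries over that in the 8 female libraries, for each miRNA in Ago1 (diamonds) and Ago2 (circles), on a log axis; bars are 95% counting intervals, drawn where the female libraries held 1 to 3 reads, and open triangles are lower bounds where they held none. The ratios of miR-975-5p and miR-976-3p in Ago1 are 411 and 266, against 6.89 for miR-983-5p and 1.22 for miR-962-5p.

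The difference between the sexes was also seen after Ago2 precipitation, within 21-nt reads and at the level of hairpins. The 21-nt reads are part of those above and the hairpin reads come from the same libraries, so neither is independent support. In Ago2, 9 of the 18 had enough reads to be tested and 8 were higher in males, where 18.9% of 249 rows were called higher. None of the 9 met the minimum for testing on female Ago2 reads alone (at most 40, for miR-991-3p). Their direction was thus in part fixed by the filter, and the count is a description. None of the 5 miRNAs of the miR-972 cluster had a read in any female Ago2 library, while the male libraries held 9 to 224 of them. miR-976-3p was accordingly at least 53.2-fold higher in males. miR-983-5p ranged from 305 to 1351 RPM in males and from 0 to 63.8 RPM in females (4.73, SE 0.56, adjusted p = 1.41e-06). miR-962-5p again was not called (0.58, SE 0.78, adjusted p = 0.488). Among 21-nt reads all 12 miRNAs tested in Ago1 were higher in males, against 17.5% of rows, and so were all 4 tested in Ago2, against 23.1%. Among reads mapped to annotated hairpins all 16 tested in Ago1 were higher in males, against 16.9% of transcripts, and all 12 tested in Ago2, against 39.0%. mir-983-1 and mir-983-2 have identical counts in every library, so these are 15 and 11 separate measurements. They included mir-963, which has no mature row above and had 2244 male and 478 female Ago1 reads (3.07, SE 0.36, adjusted p = 1.10e-05), and mir-962, which was called here (2.18, SE 0.39, adjusted p = 0.00042). Hairpin values were scaled to reads mapped to the genome, which were fewer in the male of every matched Ago1 pair (705569 to 2205268 in males, 1394785 to 2323765 in females). Reads of up to 25 nt were more numerous in the male of every such pair. This change of library size alone raises male-over-female values, so hairpin differences cannot be set against those of mature miRNAs. The call of mir-962 may thus rest on the scaling. mir-972 was near 0 in both sexes, with 7 male reads and none in females. No hairpin had more than 42 female Ago2 reads, so all those tested in Ago2 met the minimum only through males. The same holds in Ago1 for mir-973 to mir-977, mir-982 and mir-991, with 0 to 60 female reads each.

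The comparison of genotypes asks whether the loss of dFOXO moved these miRNAs. In female Ago1 libraries 3 were higher in dFOXO-null flies, miR-959-5p, miR-962-5p and miR-964-5p, all of the miR-959 cluster, and none was lower. They were the 3 rows called higher of the 308 tested (0.974%). miR-964-5p was at 35.4, 13.4, 10.7 and 10.9 RPM in the 4 wildtype female libraries and at 199, 64.4, 157 and 40.0 RPM in the 4 dFOXO-null ones. The groups did not overlap, and the difference was 2.81 (SE 0.60, log2, adjusted p = 0.0219). miR-962-5p was at 1.84, 3.88, 3.58 and 2.56 RPM in wildtype and at 21.6, 7.89, 18.8 and 11.6 RPM in dFOXO-null females, again without overlap (2.32, SE 0.51, adjusted p = 0.0219). miR-959-5p had 1 read over the 4 wildtype libraries and 21 reads over the 4 dFOXO-null libraries, with at least 4 reads in each of these (fitted difference 4.57, adjusted p = 0.0371).

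The rest of the cluster had differences of the same sign without passing the test. They ran from 1.48 to 2.41, with adjusted p from 0.149 to 0.776, and 8 of the 9 miRNAs had an unadjusted p under 0.05. The share of all rows with such a p was not counted, so this count is a description. Of all 18, 8 were higher in the dFOXO-null female of all 4 pairs matched for age and experiment, all of them from this cluster, against 14.3% of the rows tested, and for 7 the genotypes did not overlap, against 5.19%. The summed cluster ran from 18.6 to 45.5 RPM in wildtype and from 77.5 to 272 RPM in dFOXO-null females. The miR-982 cluster and miR-991-3p did not show this. The miR-972 cluster, at 1 to 6 summed reads per female Ago1 library, was too rare to tell. miR-983-5p was at 50.5, 27.5, 32.2 and 20.5 RPM in wildtype females and at 16.6, 27.4, 23.3 and 65.0 RPM in dFOXO-null females (-0.03, SE 0.43, adjusted p = 1.00), and miR-991-3p differed by 0.43 (SE 0.54, adjusted p = 0.956). Summed reads of the testis marker genes were 0 to 3 in wildtype and 0 to 4 in dFOXO-null female Ago1 libraries.

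**Figure D3:**
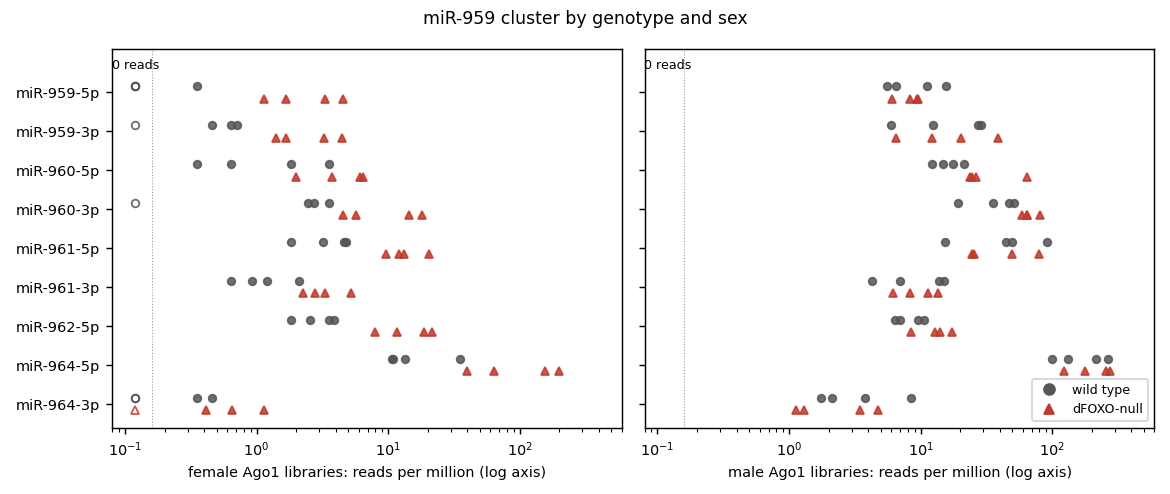
Level of the 9 miRNAs of the miR-959 cluster in female (left) and male (right) Ago1 libraries, in RPM on a log axis, with 4 wildtype (circles) and 4 dFOXO-null libraries (triangles) in each sex; open symbols left of the dotted line stand for 0 reads. In females the triangles lie right of every circle for 7 of the 9 miRNAs, and in males this holds for miR-960-5p and miR-960-3p.

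In males none of the 18 was called between genotypes (0.325% of rows called, all lower; none of the 18 had an unadjusted p under 0.05, and edgeR with the experiment as a block called none). miR-964-5p was at 267, 133, 216 and 99.3 RPM in wildtype males and at 257, 178, 276 and 124 RPM in dFOXO-null males (0.23, SE 0.55). For 2 of the 18, miR-960-5p and miR-960-3p, every dFOXO-null male stood above every wildtype male, against 4.55% of rows. miR-964-5p values of dFOXO-null females reached into the male range, and between the sexes of dFOXO-null flies it differed by 0.87 (SE 0.55, adjusted p = 0.199), against 3.45 (SE 0.61, adjusted p = 0.000158) in wildtype flies. The difference of the genotype effects between females and males, tested as such, was 2.58 for miR-964-5p (SE 0.80, adjusted p = 0.211), and no row of the table passed that test (4 of the 18 had an unadjusted p under 0.05). With the experiment number as a block, which the libraries bear out, 2 miRNAs passed it (miR-959-5p and miR-964-5p), and 5 instead of 3 were called in females, with miR-960-3p and miR-961-5p added. Averaged over sexes and ages, 0 of the 18 were called without the block (0.325% of rows called higher), 7 had an unadjusted p under 0.05, and 5 were called with it, all of this cluster. DESeq2 called 3 in the average and 5 in females. The share of all rows called with the block or by DESeq2 is not given here, so these counts do not set the miRNAs apart. The call in females was not stable to the loss of a library. It went from 3 miRNAs to 0 or 1 on leaving out any of the 4 wildtype libraries or either dFOXO-null library of experiment 1. In Ago2 the cluster had 2 to 32 reads per female library, and none of the 9 tested was called in either sex (0% of rows). An unadjusted p was under 0.05 for 2 in females and none in males, and DESeq2 called none in males or in the average. miR-962-5p was at 0 to 1 reads in each wildtype and 4 to 7 reads in each dFOXO-null female library (2.84, SE 1.22, adjusted p = 0.604). miR-964-5p, at 0 to 8 reads per female Ago2 library, did not show its Ago1 difference (-0.02, SE 0.84). It was higher in the dFOXO-null female of 2 of 4 pairs. Between the sexes it differed in Ago2 by 2.77 (SE 0.65) in dFOXO-null and by 2.52 (SE 0.68) in wildtype flies.

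The comparison of ages asks whether these miRNAs held their level to 35 d. No miRNA of the 18 was called in either Argonaute by edgeR or DESeq2, in males or averaged over the sexes (0.649% of rows called in each direction in the Ago1 average, 0% in Ago2), and none had an unadjusted p under 0.05 in those averages or in Ago2 males. In Ago1 males 17 of 18 had a difference below 0 at 35 d, with a median of -0.85, where the median of all rows was -0.04 and 0.325% of rows were called. Unadjusted p was under 0.05 for 4, miR-964-3p, miR-961-3p, miR-982-5p and miR-991-3p. miR-991-3p was at 55.1, 48.0, 48.3 and 67.5 RPM in young males and at 24.2, 23.6, 22.5 and 41.3 RPM in their old brothers (-0.98, SE 0.45, adjusted p = 0.543). The 2 ages did not overlap. miR-983-5p went from 402, 273, 347 and 296 RPM to 155, 204, 157 and 200 RPM, also without overlap (-0.88, SE 0.42, adjusted p = 0.543). miR-964-3p was at 3.45 to 8.42 RPM in young and at 1.12 to 2.12 RPM in old males (-1.68, SE 0.48, adjusted p = 0.181), and with the genotype and experiment as a block it was the 1 miRNA called (-1.65, adjusted p = 0.0352).

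The old male was lower in all 4 pairs of brothers for 10 of the 18, where 16.2% of rows were, and the ages did not overlap for 5, where 3.57% of rows did not. The summed 18 ran from 1104 to 1519 RPM in young and from 685 to 1044 RPM in old males. miR-959-3p was the exception in sign (0.08, SE 0.62), and miR-973-5p was higher in 2 of 4 pairs. Within 21-nt reads all 12 miRNAs tested had a difference below 0, 8 with an unadjusted p under 0.05, and miR-991-3p was called (-1.85, SE 0.45, adjusted p = 0.0433), where 2.14% of rows were called lower and the median of all rows was -0.46. In females none had an unadjusted p under 0.05, and 10 of 18 differences lay above 0. The difference of the age effects between the sexes passed for none of the 18 (1 had an unadjusted p under 0.05). Testis marker genes had 6 to 15 summed reads in young and 5 to 26 in old male Ago1 libraries. The median over the 18 was -1.01 in wildtype males, where that of all rows was 0.05, and -0.73 in dFOXO-null males, where that of all rows was -0.29.

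**Figure D4:**
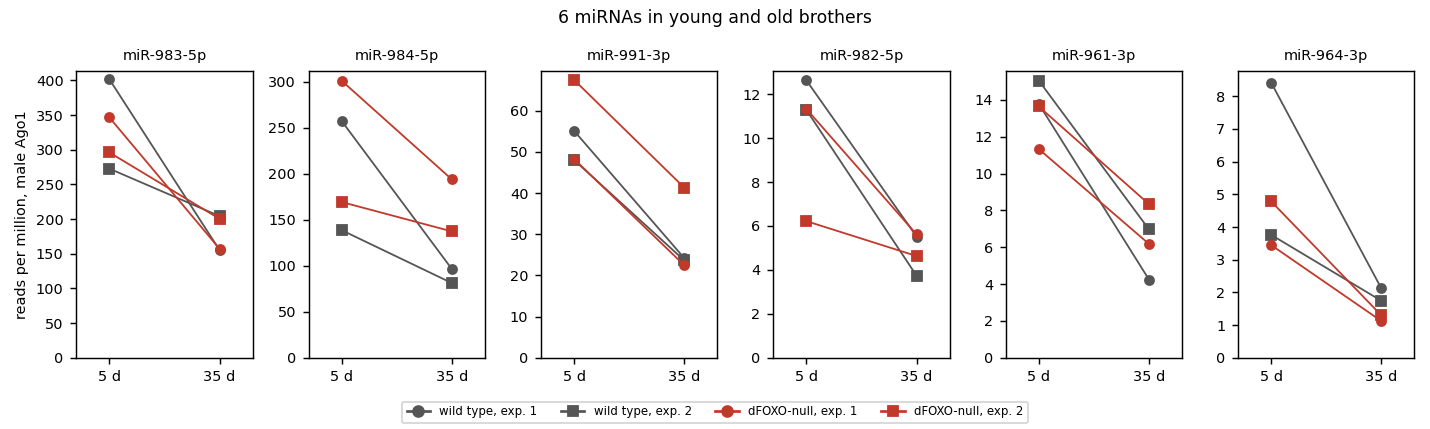
Level of 6 of the 10 miRNAs that were lower in the old male of all 4 pairs, chosen after this was seen (miR-983-5p, miR-984-5p, miR-991-3p, miR-982-5p, miR-961-3p and miR-964-3p), in male Ago1 libraries at 5 d and 35 d, in RPM from 0, with lines joining brothers of a genotype and experiment (grey wildtype, red dFOXO-null; circles experiment 1, squares experiment 2). All 24 lines go down, as the choice fixes. None of the 6 passed the test over all rows without a block, while miR-964-3p passed with one (adjusted p = 0.0352) and miR-991-3p among 21-nt reads (adjusted p = 0.0433).

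The comparison of Ago2 with Ago1 asks where these miRNAs were held, with libraries matched by genotype, sex, age and experiment and taken as drawn from 1 lysate. miRNAs were 74.8% to 96.0% of mapped reads in male Ago2 libraries and at least 99.4% in male Ago1 libraries, and most of these values move with the scaling. miR-991-3p was the clear case. It ran from 22.5 to 67.5 RPM in male Ago1 libraries and from 103 to 747 RPM in male Ago2 libraries (median 310), higher in Ago2 in all 8 pairs and without overlap, by 2.98 (SE 0.39, adjusted p = 3.44e-07). In females it was at 1.06 to 5.4 RPM in Ago1 and at 27.7 to 98.0 RPM in Ago2, on 2 to 14 reads per Ago2 library, a difference of 3.90 (SE 0.51, adjusted p = 1.63e-07). With TMM, median-of-ratios scaling and DESeq2 it was still called higher in Ago2 in males (1.07, 1.39 and 1.39). It was the 1 member of the 16 tested whose male Ago2 libraries all stood above its male Ago1 libraries, which 31% of rows did.

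In males 3 more of the 16 tested were called higher in Ago2, miR-983-5p (1.37, SE 0.36, adjusted p = 0.00193), miR-962-5p (1.76, SE 0.46, adjusted p = 0.00206) and miR-961-3p (1.27, SE 0.41, adjusted p = 0.0115). Since 48.5% of all rows were called higher in Ago2 and 0.99% lower, with a median of 0.99, a share of 4 in 16 is below that of the table. TMM moved the median of all rows to -0.67, and these 3 were then not called (-0.44, -0.0031 and -0.48, in that order), while 11 others were called lower in Ago2. miR-984-5p differed by 0.21 (SE 0.39, adjusted p = 0.755) with total scaling and was among those 11. miR-991-3p alone was called in females, against 48.8% of rows. Averaged over the sexes, miR-962-5p and miR-991-3p were called higher, against 47.9% of rows (11.6% lower). The share of miR-991-3p among all reads of the 18 in males went from a median of 3.54% in Ago1 to 14.5% in Ago2, which does not depend on the scaling. That of miR-983-5p went from 23.6% to 32.3%, and that of miR-964-5p from a median of 16.03% to 8.45%.

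**Figure D5:**
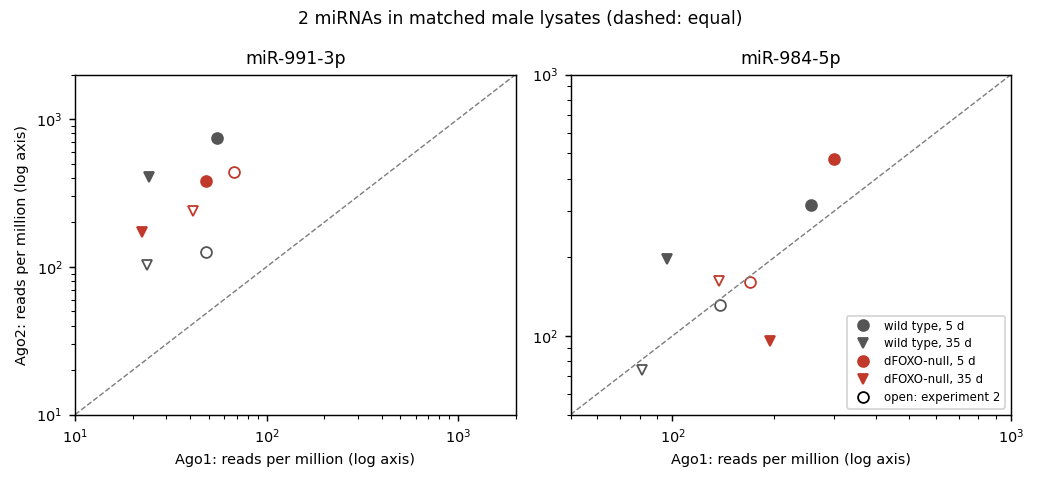
RPM in Ago2 against RPM in Ago1 for the 8 matched pairs of male libraries, both on log axes, for miR-991-3p (left) and miR-984-5p (right); grey is wildtype, red dFOXO-null, circles 5 d, triangles 35 d, filled experiment 1, open experiment 2, and the dashed line marks equal values. All 8 points of miR-991-3p lie above the line, while those of miR-984-5p lie around it.

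Read length also differed between the precipitates for miR-991-3p. Its 21-nt reads were 47.4% of its male reads in Ago1 (33.3% to 56.6% over libraries) and 10.2% in Ago2 (2.56% to 16.9%), with no overlap. The same share stayed close for miR-983-5p (35.1% and 32.6%) and miR-964-5p (34.8% and 34.2%), and it was higher in Ago2 for miR-975-5p (27.8% and 50.9%, on 1272 and 106 reads) and miR-964-3p (26.5% and 64.7%, on 83 and 17 reads). The ranges over libraries overlapped for both of these. On 21-nt reads alone miR-991-3p accordingly differed by 0.18 between Ago2 and Ago1 in males (adjusted p = 0.901). miR-960-5p was read mostly at 21 nt (96.5% in Ago1 males) and miR-984-5p seldom (15.4%). The arm that was read most differed between hairpins. In Ago1 males the 5p arm gave 98.2% of miR-964 reads and 83.9% of miR-961 reads, and in females 99.2% and 79.7%. For miR-959 the 3p arm had more reads than the 5p arm in 7 of 8 male libraries, and for miR-960 the 5p arm was ahead in none.

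Members of the miR-972 cluster did not keep a fixed ratio to each other. miR-975-5p over miR-976-3p was 0.422 to 2.84 in the 4 male Ago1 libraries of experiment 1 and 0.0738 to 0.162 in those of experiment 2. The 2 ranges did not overlap, and in the matched Ago2 libraries they were 0.538 to 3 and 0.0654 to 0.458. The Ago2 ratios rest on few reads, and the highest, 3, is 6 over 2 reads. miR-977-5p over miR-976-3p was 0.123 to 0.333 and 0.162 to 0.244 in Ago1, so the 2 experiments overlapped there. Both hairpins are neighbours of mir-976, with mir-975 at 51 bases from it and mir-977 at 30 bases. The ratio of miR-975-5p to miR-976-3p thus followed the experiment in Ago1 and, on few reads and with ranges close together, in Ago2. Within each experiment miR-975-5p and miR-976-3p were higher in males in all 4 pairs.

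Across the 16 Ago1 libraries the rows most like miR-983-5p were miR-984-5p (Pearson's r = 0.947 on log2 percent), miR-976-3p (0.944) and miR-991-3p (0.943), followed by miR-985-3p (0.934) and miR-2498-5p (0.934), which are not of these clusters. All points share the contrast of 8 male and 8 female libraries. Among the 8 male libraries alone the r of the same rows was 0.665, 0.584, 0.85, 0.747 and 0.746. miR-975-5p, whose r over all 16 was 0.895, had 0.12 among males.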

How the data were processed

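The authors trimmed adapters with Trim Galore, selected reads by length, aligned them with Bowtie allowing 1 mismatch and reporting all valid alignments, and counted them with featureCounts, with dm6 as the build per the labels. The deposited counts are whole reads per feature, without normalization, in 3 tables (reads up to 25 nt and 21-nt reads on mature miRNAs, transposons and spike-ins, and reads on dm6 transcripts). The deposited percent tables divide each count by the library total without spike-ins. Percent recomputed from the counts differed by at most 0.458% of a value, so the counts were used.

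RPM and tests took the total mapped reads without spike-ins as library size. Counts were tested in R 4.3.3 with edgeR 4.0.16 (quasi-likelihood, 1 mean per group, rows averaging at least 5 reads, Benjamini-Hochberg adjustment over all rows of the table, threshold 0.05), with all 16 libraries of an Argonaute, or all 32 for Ago2 against Ago1. Log2 differences are males over females, 35 d over 5 d, dFOXO-null over wildtype and Ago2 over Ago1. No standard error above 5 is given. Alternatives were TMM and median-of-ratios scaling, miRNA reads as library size, DESeq2 1.42.0, no filter, miRNA rows alone, 21-nt reads, a replicate block, leaving out each library and, chosen after seeing the data, an additive model, also within each experiment.

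The experiment numbers come from the labels, which also give young and old flies of a number the same parents. The differences between experiments correlated across rows for every pair of Ago1 groups (0.203 to 0.723), and for Ago2 groups from -0.176 to 0.683. On simulated counts for 308 rows, the comparison of genotypes in females recovered 0% of 2-fold, 55% of 4-fold and 95% of 8-fold changes. The sex comparison in Ago1, simulated on 305 rows, recovered 94.7% of 4-fold changes. Named are all 18 miRNAs, as comparison the miRNAs of the miR-310 cluster and the ovary, and the 5 rows most like the most-read member, with a pseudocount of 0.0001 percent. The members and lists were chosen with earlier results of these data known. Replicate libraries differed by far more than sampling noise (chi-square statistics of at least 12.6 times their degrees of freedom), so none was a copy. p-values measure the spread between the 2 experiments.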

Additional observations from a re-analysis of the deposited data

Results flagged for a closer look

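Among 36 sets of 8 libraries of a sex and Argonaute with at least 50 reads of a miRNA, 2 held a library far from the others by Dixon's criterion, which chance meets in about 1 of 20 sets. miR-960-5p reached 64.4 RPM (269 reads) in the dFOXO-null male Ago1 library at 5 d of experiment 2, where the next library was at 26.6 RPM. miR-964-5p reached 292 RPM (62 reads) in the dFOXO-null male Ago2 library at 5 d of experiment 1, where the next was at 164 RPM. Without a block, no difference of effects between the sexes passed the test over all rows. With the experiment as a block 2 miRNAs passed it for genotype, miR-959-5p and miR-964-5p, and without the dFOXO-null female Ago1 library at 5 d of experiment 2 it was passed by 1, miR-959-5p.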

How the results depend on the processing

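Of the comparisons reported, males against females in Ago1 kept its direction for every miRNA tested under the scalings, filters, read classes and tools tried, with 15 to 18 called on leaving out 1 library and 15 and 17 within experiments 1 and 2. In Ago2 8 were called, 14 without the filter and 4 within 21-nt reads (7 to 8 on leaving out 1 library), and within 21-nt reads of Ago2 4 were called, 11 without the filter and 2 to 4 on leaving out 1 library (2 without the dFOXO-null male Ago2 library at 5 d of experiment 1). For hairpins, leaving out 1 library left 16 called in Ago1 and 12 in Ago2.

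Dependence was greatest for genotype and for Ago2 against Ago1. The replicate block raised the calls between genotypes from 3 to 5 in females, from 0 to 5 in the average and from 0 to 2 in the difference between the sexes, and gave 1 lower call with age in males. It moved no other count of calls by over 1.5 times. Counts with the block and by DESeq2 are given without the share of all rows called, and so are descriptions. DESeq2 called 5 in females and 3 in the average, and miRNA rows alone 1 in the average. With 21-nt reads 0 were called in females and 1 with age in males. Leaving out 1 library gave 0 to 3 calls in females, 0 to 3 in the average and 0 to 1 in the difference between the sexes. The average gave 2 calls without the dFOXO-null female Ago1 library at 5 d of experiment 2, 3 without that at 35 d and 1 without the wildtype one at 5 d of experiment 2.

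For Ago2 against Ago1, TMM gave 11 calls in the average (10 lower) and 12 in males, median-of-ratios scaling 7 and 12, DESeq2 5 and 12, and 21-nt reads 1 and 1. The additive model, chosen after seeing the data, gave 4 in the average. With TMM the difference in males was -0.48 for miR-961-3p, -0.0031 for miR-962-5p and -0.44 for miR-983-5p. With median-of-ratios scaling it was -0.22 for miR-961-3p and -0.20 for miR-983-5p, and with DESeq2 -0.22 and -0.20. miR-962-5p was 0.24 with both and no longer called. Leaving out 1 library gave 1 to 3 calls in the average (1 without either the wildtype female Ago2 library at 35 d of experiment 1 or that at 5 d of experiment 2) and 3 to 5 in males, and moved miR-961-3p between -0.37 and 1.48. The cause was not tested.

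Depth limits the Ago2 results most, since 3 reads stand for 5.34 to 98 RPM there. With 2 libraries a group, changes with age or genotype near 2-fold are mostly out of reach of these tests.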
